A study of Mus musculus with 12 samples.

Results

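The comparison described here concerns loss of the second allele of Sox9 in mouse hepatocytes that carry an active form of YAP. It sets 2 libraries of Sox9-null cells against 2 libraries of Sox9-het cells, 4 of the 12 libraries in the series, across the 10681 genes, of 16116 in the table, that had a log2 level of at least 1 in at least 2 of the 12 libraries. The Sox9-null cells came from Sox9 fl/fl mice and the Sox9-het cells from Sox9 fl/+ mice. Both groups received the same pair of adeno-associated viruses, AAV2/8-TBG-Cre and AAV2/8-TBG-YAP S127A-P2A-GFP. Cre recombinase and the YAP mutant were thus on separate viruses, each under the hepatocyte promoter TBG. GFP marks the YAP virus, and whether every GFP positive cell also received Cre is not given. Wild type mice that received AAV2/8-TBG-GFP, and so neither Cre nor YAP S127A, gave 2 control libraries. A second experiment deleted Sox9 under loss of the Hippo kinases in place of YAP S127A. There the mice were Mst1 fl/fl; Mst2 fl/fl with ROSA26-lsl-TdTomato, a reporter that Cre switches on, and carried Sox9 fl/fl or Sox9 fl/+ when given AAV2/8-TBG-Cre, or AAV2/8-TBG-GFP as the control without Sox9 floxed alleles, with 2 libraries in each group. Injection was at the age of 3 weeks in every group, and GFP or TdTomato positive cells were sorted after another 3 weeks in the YAP experiment and 4 weeks in the Mst experiment, leaving out cells with Epcam (biliary) or CD45 (leukocyte) on their surface. Since the labels do not say that libraries came from separate animals, the spread behind each p-value may be technical.

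SOX9 is a transcription factor of the high mobility group box family that marks the bile duct epithelium of the liver and appears in hepatocytes that take on biliary features after injury or when YAP is active. YAP is the transcriptional coactivator at the end of the Hippo pathway: the kinases MST1 and MST2 act through LATS1 and LATS2 to phosphorylate it and keep it out of the nucleus, and the serine replaced in the S127A form is a main site of this inhibition, so that this form stays active and works with the TEAD factors. The title of the series asks what Sox9 does in hepatocytes with active Yap.

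Levels are log2 CPM, read as deposited from the Ion AmpliSeq mouse transcriptome panel, which measures 1 short amplicon per gene, and differences are log2 levels of Sox9-null minus Sox9-het cells. A gene is termed called when its Benjamini-Hochberg adjusted p in limma, fitted to all 12 libraries and all 10681 genes, was under 0.05. Linear values summed to 1011693 and 969734 in the Sox9-null libraries, 939484 and 938683 in the Sox9-het libraries and 879620 and 920020 in the wild type libraries, and reads per library cannot be recovered from such values, so the depth is unknown. The 2 Sox9-null libraries correlated with r = 0.965 across genes, which are not independent replicates, and the 2 Sox9-het libraries with r = 0.953. The median of all differences was 0.15 and not 0, and 70.1% of the genes had a difference above 0. Equalising the library medians moved that median to -0.0176, a shift over 0.1, so each difference is to be read against 0.15. The hepatocyte transcript of albumin (Alb) stood at 16.03 and 14.97 in Sox9-null cells, against 15.42 and 14.96 in Sox9-het cells. Of the genes sorted against, Epcam had 1.51 and 1.92 in Sox9-null, 3.14 and 2.14 in Sox9-het and 0.83 in both wild type libraries, and Ptprc, which encodes CD45, had 0.71 and 1.53 in Sox9-null and 0.59 and 0.56 in Sox9-het cells. The duct keratins Krt7 and Krt19 did not pass the filter on low values.

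The deleted gene was lower in Sox9-null cells. Sox9 (chr11:112782224-112787760, GRCm38, plus strand) had 2.28 and 2.62 log2 CPM in the Sox9-null libraries, 4.41 and 5.28 in the Sox9-het libraries and 3.90 and 3.59 in the wild type libraries. The groups did not overlap, and both Sox9-het libraries lay above both wild type libraries. Sox9 fell by 2.40 on the log2 scale (SE 0.38), which is 5.26-fold, with an adjusted p of 0.0132 in limma. In the Mst experiment the same loss took Sox9 to 1.41 and 1.29, against 6.47 and 6.0 in its Sox9-het group, a difference of -4.89 (adjusted p = 6.31e-06, limma). The difference between the 2 experiments in the Sox9 change was 2.49 with an adjusted p of 0.279. Where the Sox9 amplicon lies relative to the floxed exons is not given. In bulk RNA, fewer cells that express a gene and less RNA per cell cannot be told apart. The Sox9 call was lost without Sox9-het library 2 (difference -1.96, adjusted p = 0.361) and without either Sox9-null library (-2.22 and -2.57, adjusted p = 0.181 and 0.0713). Sox4, a related SOX factor gene, had 6.80 and 7.45 in Sox9-null and 5.23 and 6.65 in Sox9-het cells, against 2.07 and 1.49 in wild type cells; its difference of 1.19 (SE 0.37) was not called (adjusted p = 0.401). Yap1 had 7.45 and 8.01 in Sox9-null and 7.62 and 7.29 in Sox9-het cells, which overlap, against 6.64 and 6.44 in wild type cells. Its difference was 0.28 (SE 0.24, adjusted p = 0.894 in limma). Whether the Yap1 amplicon also reads the YAP S127A transgene is not given.

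Between the 2 groups of 2 libraries 18 genes were called, 0.169% of those tested, with 12 higher (0.112%) and 6 lower (0.0562%) in Sox9-null cells. At an unadjusted p under 0.05 there were 621 higher (5.81%) and 86 lower (0.805%). The libraries of the 2 groups did not overlap for any of the 18 called genes; of all genes, 23.1% were higher and 5.12% lower without overlap. The genes that fell were Tmub2, Egr1, Fos, Sox9, Ube2o and Cela1. Those that rose were Vamp2, 2610507I01Rik, H19, Cyp4a31, G0s2, Rnf187, Pcolce, Abcb1a, Mgst3, Crat, Csf1 and Tagln2. Only Tmub2, Egr1, 2610507I01Rik and Vamp2 kept their call under all 11 other settings and with each of the 12 libraries left out in turn. The other 14 lost it at least once: 14 of the 18 were lost without Sox9-het library 2, 12 without Sox9-null library 1, 14 without Sox9-null library 2 and 1 without Sox9-het library 1. Without Sox9-het library 1 the count itself was 128, and with the spread restored to its size before a rescaling per gene that the deposited values carry it was 486, 420 higher (3.93%) and 66 lower (0.618%).

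**Figure D1:**
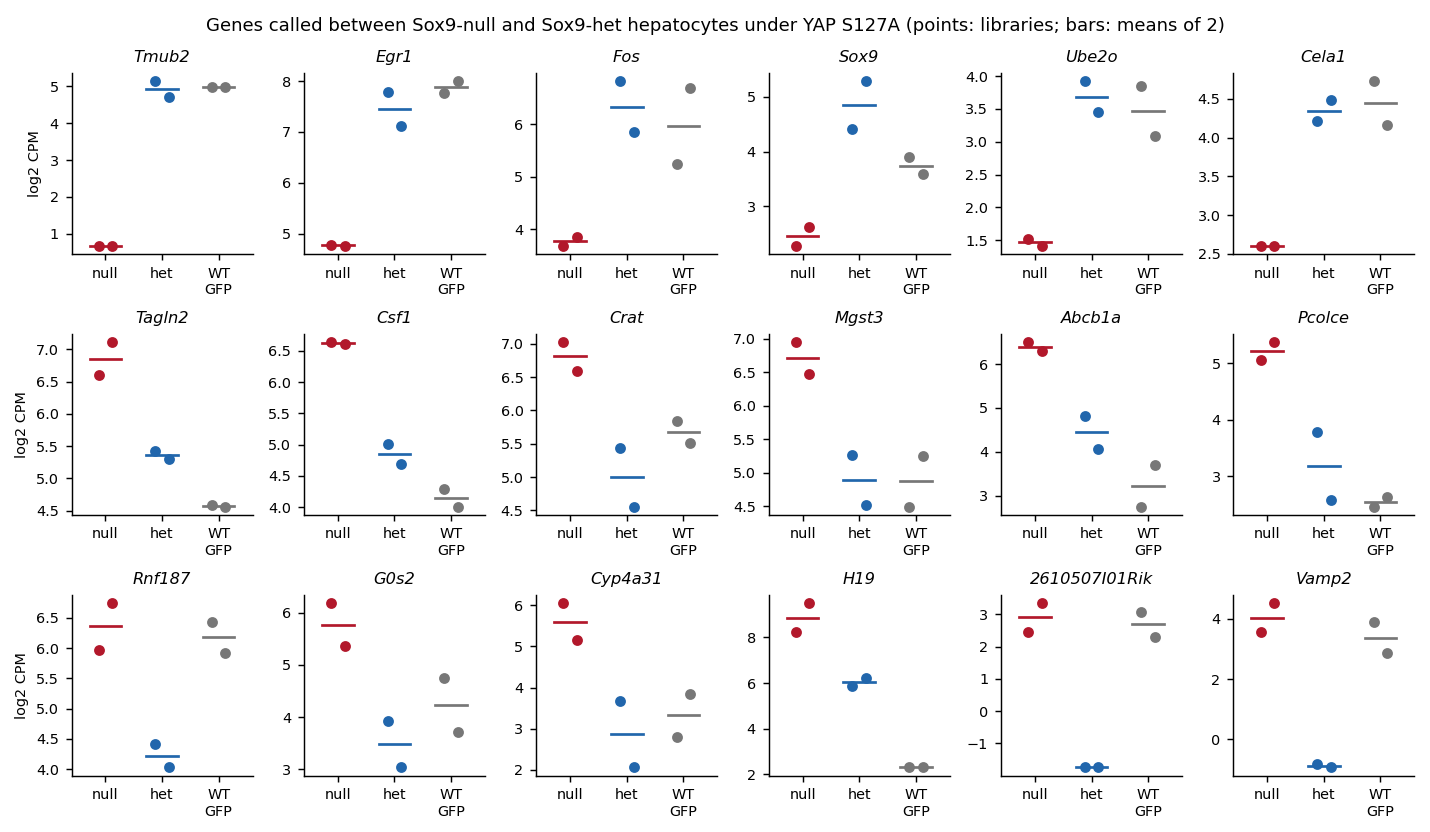
Levels (log2 CPM, vertical axis, scaled to each gene) of the 18 called genes in Sox9-null YAP S127A, Sox9-het YAP S127A and wild type GFP hepatocytes; points are libraries, 2 per group, and horizontal bars are their means. The null and het points do not overlap in any panel, and in the panels of Rnf187, 2610507I01Rik, Vamp2 and Crat the het points lie below both other groups.

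**Figure D2:**
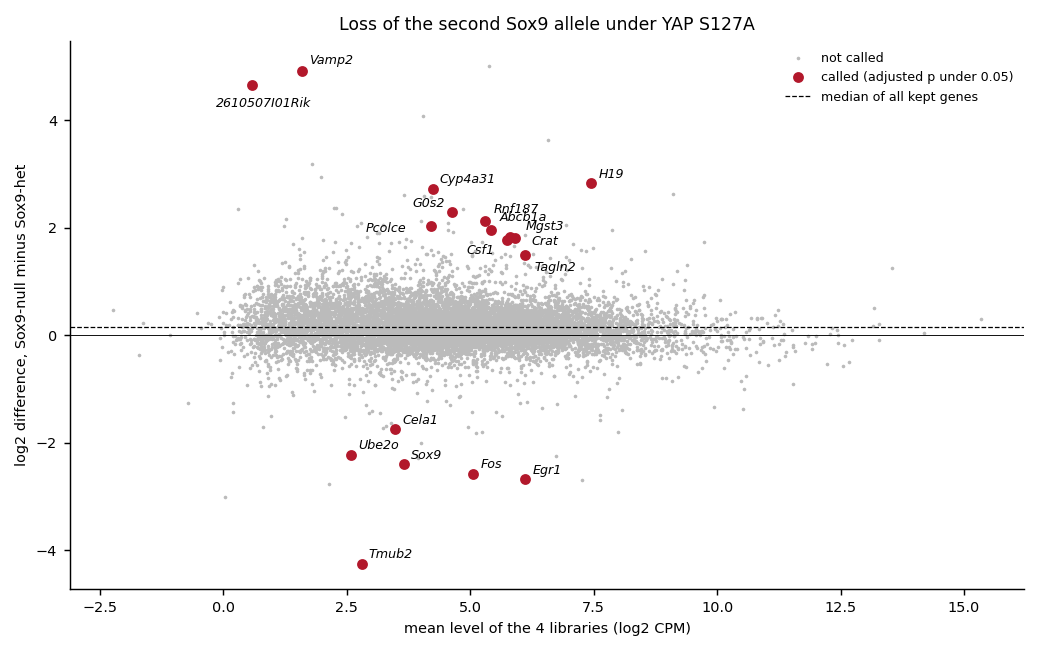
Log2 difference, Sox9-null minus Sox9-het, of each of the 10681 genes (vertical axis) against its mean level in the 4 libraries (horizontal axis, log2 CPM); the 18 called genes are named and the dashed line is the median of all genes at 0.15. The called genes span mean levels from the low end of the plot (2610507I01Rik) to H19, and more points lie far above the line than far below it.

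A pair of immediate early transcription factor genes, which cells switch on within minutes of growth factor or stress signals, was lower in Sox9-null cells. Egr1, a zinc finger factor, had 4.79 and 4.76 log2 CPM in Sox9-null cells, against 7.79 and 7.11 in Sox9-het and 7.78 and 7.99 in wild type cells. It fell by 2.67 (SE 0.29), 6.39-fold, with an adjusted p of 0.000366 in limma, so that Sox9-het cells stood near the wild type level and Sox9-null cells below both. Fos, a subunit of the dimeric factor AP-1, had 3.69 and 3.85 in Sox9-null, 6.82 and 5.86 in Sox9-het and 5.24 and 6.68 in wild type cells. It fell by 2.57 (SE 0.45), 5.94-fold, with an adjusted p of 0.0274. Of the 27 kept genes on the list of immediate early genes, 8 were lower and 1 higher at an unadjusted p under 0.05, against 0.805% and 5.81% of all genes; 2 were called, and the median difference was -0.05. Gadd45g, a stress-induced growth arrest gene, came next with 6.30 and 4.92 in Sox9-null, against 7.58 and 8.12 in Sox9-het cells (difference -2.24, adjusted p = 0.0665). Btg2, an antiproliferative gene, had 5.58 and 5.16 in Sox9-null and 6.89 and 6.37 in Sox9-het cells (-1.26, adjusted p = 0.291). The list did not move as 1 group: Klf6, a zinc finger gene chosen here after its values were seen, had 6.73 and 6.48 in Sox9-null, above 5.63 and 6.21 in Sox9-het cells, with a difference of 0.68.

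The remaining fall outside the chromosome of Sox9 was that of Cela1, which encodes a pancreatic elastase of the serine protease family. It stood at 2.61 in both Sox9-null libraries, an identical value, against 4.21 and 4.48 in Sox9-het and 4.72 and 4.16 in wild type cells. It fell by 1.74 on the log2 scale (SE 0.30, adjusted p = 0.0262). Identical values in a pair of libraries occurred for 2.08% of the genes in the Sox9-null group and 1.35% in the Sox9-het group. They also occurred at high levels, as for Itih4 with 11.36 in both Sox9-null libraries, so an identical pair alone does not mark a lower limit. Cela1 itself went lower, to 2.24, in Mst Sox9-het library 1. No fold is stated for called genes with an identical pair in the Sox9-null or Sox9-het group.

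Several genes of lipid metabolism rose. Cyp4a31, a fatty acid hydroxylase of the cytochrome P450 family 4, had 6.05 and 5.15 log2 CPM in Sox9-null cells, against 3.68 and 2.06 in Sox9-het and 2.79 and 3.85 in wild type cells. It rose by 2.73 (SE 0.49), 6.63-fold, with an adjusted p of 0.0323. Its neighbours on chromosome 4, which are close paralogs so that reads may be shared between them, had larger differences and wider spread: Cyp4a14 had 10.06 and 5.72 in Sox9-null, 4.84 and 0.92 in Sox9-het and 1.77 and 6.64 in wild type cells. Its difference of 5.01 had an SE of 1.40 (adjusted p = 0.290). Cyp4a10 had 9.53 and 7.26 in Sox9-null and 7.11 and 2.41 in Sox9-het cells, a difference of 3.63 (adjusted p = 0.481). All 3 genes were highest in Sox9-null library 1 and lowest in Sox9-het library 2 among these 4 libraries. G0s2, an inhibitor of the triglyceride lipase ATGL, had 6.19 and 5.36 in Sox9-null, 3.93 and 3.03 in Sox9-het and 4.75 and 3.72 in wild type cells; it rose 4.89-fold (log2 2.29, SE 0.41, adjusted p = 0.0317). The G0s2 call held in 4 of the 11 other settings, the fewest of the 18, and was lost with library medians equalised and with quantile normalization. Crat, the carnitine acetyltransferase of mitochondria and peroxisomes, had 7.02 and 6.60 in Sox9-null, 5.44 and 4.56 in Sox9-het and 5.84 and 5.51 in wild type cells. It rose 3.51-fold (log2 1.81, SE 0.28, adjusted p = 0.00993).

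The list of fatty acid oxidation genes, most of which are PPARA targets, had 9 of 27 kept members higher and 0 lower at an unadjusted p under 0.05, against 5.81% and 0.805% of all genes. Its median difference was 0.37, with 25 members above 0, and Cyp4a31 was its 1 call. Enzymes and regulators of cholesterol and fatty acid synthesis, many of them SREBP targets, had 12 of 32 higher and 0 lower, 31 above 0 and a median of 0.66, with no call. Fads3, a fatty acid desaturase family member, had 7.88 and 8.72 in Sox9-null, 7.30 and 6.05 in Sox9-het and 2.88 in both wild type libraries (difference 1.62, SE 0.37, adjusted p = 0.172). Scd2, a stearoyl-CoA desaturase, had 4.72 and 5.80 in Sox9-null and 3.89 and 3.86 in Sox9-het cells (1.39, adjusted p = 0.326), and Pnpla3, a lipid droplet protein, had 2.27 and 2.41 against 1.02 and 0.46 (1.60, adjusted p = 0.322). The median of the synthesis list was 0.34 against Sox9-het library 1 alone and 0.95 against library 2 alone. Glycolysis genes lay at the median of all genes (0.15, with 2 of 18 higher and 0 lower). In the Mst experiment the oxidation list had a median of -0.165 and the synthesis list -0.115, against 0.09 for all genes.

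The imprinted long non-coding RNA H19, abundant in fetal liver and silenced after birth, rose. It had 8.23 and 9.49 log2 CPM in Sox9-null cells, against 5.85 and 6.21 in Sox9-het and 2.31 in both wild type libraries. The rise was 7.11-fold (log2 2.83, SE 0.41, adjusted p = 0.00709). H19 was called for a higher level than wild type in both YAP S127A groups. On the list of fetal liver and liver tumour markers, 7 of 13 kept genes were higher and 0 lower at an unadjusted p under 0.05, against 5.81% and 0.805% of all genes, and the median difference was 0.97, with H19 the 1 call. Spink1, a secreted trypsin inhibitor, had 8.44 and 7.49 in Sox9-null, 6.81 and 5.01 in Sox9-het and 2.59 and 1.48 in wild type cells (2.06, adjusted p = 0.158). Ly6d, a surface protein of the Ly6 family, had 9.57 and 8.12 in Sox9-null and 6.48 and 7.31 in Sox9-het cells (1.95, adjusted p = 0.172). Gpc3, the cell surface proteoglycan glypican-3, had 6.73 and 7.36 in Sox9-null, 6.02 and 4.33 in Sox9-het and -0.94 and -0.51 in wild type cells (1.86, adjusted p = 0.205). Alpha-fetoprotein (Afp), the classic fetal marker, had 3.28 and 1.90 in Sox9-null, overlapping 2.99 and 2.46 in Sox9-het cells.

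Csf1, Tagln2 and Pcolce, which encode secreted or cytoskeletal proteins, rose. Csf1, the macrophage growth factor, had 6.63 and 6.61 log2 CPM in Sox9-null cells, 5.0 and 4.69 in Sox9-het and 4.29 and 4.01 in wild type cells. It rose 3.42-fold (log2 1.77, SE 0.24, adjusted p = 0.00357), and it alone was called among the 21 kept chemokines and cytokines. Tagln2, an actin-binding protein of the calponin family, had 6.60 and 7.11 in Sox9-null, 5.42 and 5.31 in Sox9-het and 4.58 and 4.56 in wild type cells. Its rise was 2.82-fold (log2 1.5, SE 0.28, adjusted p = 0.0380), and the call was lost with library medians equalised and with quantile normalization. Flna, the actin crosslinker filamin A, had 8.08 and 7.99 in Sox9-null, 6.45 and 6.46 in Sox9-het and 3.91 and 3.97 in wild type cells, with libraries close within each group and an adjusted p of 0.172 for a difference of 1.58. On the actin and integrin list 6 of 30 kept genes were higher and 0 lower at an unadjusted p under 0.05, against 5.81% and 0.805% of all genes, and the median was 0.47, with Tagln2 the 1 call. Pcolce, which enhances the cleavage of procollagen, had 5.05 and 5.37 in Sox9-null, 3.79 and 2.58 in Sox9-het and 2.47 and 2.63 in wild type cells; it rose 4.07-fold (log2 2.02, SE 0.34, adjusted p = 0.0206). Extracellular matrix genes had 7 of 25 higher and 0 lower, with a median of 0.48 and no call; the basement membrane gene Nid1 had 10.69 and 10.51 in Sox9-null, 9.45 and 8.27 in Sox9-het and 4.97 and 5.29 in wild type cells (1.73, adjusted p = 0.205).

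Abcb1a and Mgst3 act on drugs and reactive lipids. Abcb1a, a P-glycoprotein efflux pump, had 6.50 and 6.29 log2 CPM in Sox9-null cells, 4.81 and 4.07 in Sox9-het and 2.75 and 3.71 in wild type cells, and rose 3.88-fold (log2 1.96, SE 0.32, adjusted p = 0.0174). Mgst3, a microsomal glutathione transferase, had 6.95 and 6.48 in Sox9-null, 5.26 and 4.52 in Sox9-het and 4.5 and 5.25 in wild type cells, and rose 3.53-fold (log2 1.82, SE 0.30, adjusted p = 0.0182). Both lay in Sox9-null cells above every library of the other groups of the YAP experiment.

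Promoter sequences were searched for a SOX core, ACAAT, its longer form ACAATG, and a TEAD form, GGAATG, on both strands; every ACAATG also holds an ACAAT. RefSeq promoters of build GRCm38.p6, from 250 bases before to 50 bases after a gene's start, were at hand for 10 of the 18 called genes. ACAAT was found in 1 of the 10, against 23.5% of the 8293 kept genes with a promoter and 31.0% of all 32851 promoters; ACAATG in 0 of 10, against 8.87% and 12.6%; and GGAATG in 3 of 10 (Abcb1a, Rnf187 and Tagln2), against 14.1% and 14.7%. A match describes letters in this window and nothing of binding. The RefSeq start can differ from the GENCODE start used for coordinates elsewhere. The Abcb1a window, chr5:8566841-8567140, lies far before its GENCODE start at 8660077. The Pcolce window, chr5:137611355-137611654, lies inside its GENCODE gene. The promoters of 2 genes that rose are shown, since Csf1 holds the SOX core and Tagln2 the TEAD form at 2 places; capitals mark the motif, which in Tagln2 reads as its reverse complement CATTCC. The Csf1 sequence is chr3:107760420-107760719 on the minus strand, with the motif starting 121 bases before the gene's RefSeq start. The Tagln2 sequence is chr1:172499996-172500295 on the plus strand, with motifs starting 118 and 80 bases before its RefSeq start. The GENCODE start of Tagln2, at 172500047, lies before both motifs, so by that start they fall inside the gene.
Csf1: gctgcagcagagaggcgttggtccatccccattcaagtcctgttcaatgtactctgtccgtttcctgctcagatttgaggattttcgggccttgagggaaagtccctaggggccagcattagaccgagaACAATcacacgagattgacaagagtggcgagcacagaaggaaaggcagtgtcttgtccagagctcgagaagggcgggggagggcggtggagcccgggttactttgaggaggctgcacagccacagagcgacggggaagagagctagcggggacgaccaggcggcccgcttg
Tagln2: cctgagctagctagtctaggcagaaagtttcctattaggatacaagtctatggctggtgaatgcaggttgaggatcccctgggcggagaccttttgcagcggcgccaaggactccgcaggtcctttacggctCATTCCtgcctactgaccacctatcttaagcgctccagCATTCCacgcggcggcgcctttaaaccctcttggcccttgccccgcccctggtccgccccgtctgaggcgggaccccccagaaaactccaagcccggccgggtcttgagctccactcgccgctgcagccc

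The chromosome that carries Sox9 held 6 of the 18 called genes, against 8.14% of the kept genes with a known position, 867 of 10647. They were Sox9 itself, Tmub2, Ube2o, Rnf187, 2610507I01Rik and Vamp2, and they include all 4 of the calls that also held in the Mst experiment. Tmub2, a transmembrane protein with a ubiquitin-like domain (chr11:102284931-102289237, GRCm38), had the smallest adjusted p of all genes. It stood at 0.68 in both Sox9-null libraries, against 5.13 and 4.72 in Sox9-het and 4.98 in both wild type libraries, a fall of 4.25 (SE 0.27, adjusted p = 5.48e-07). In the Mst experiment it stood at 0.62 and 0.40 in Sox9-null and 4.90 in both Sox9-het libraries, a difference of -4.39 (adjusted p = 3.41e-07). It lies 10.49 Mb before Sox9. Ube2o, a ubiquitin-conjugating enzyme 3.75 Mb beyond Sox9 (chr11:116537740-116581447), had 1.52 and 1.42 in Sox9-null, 3.92 and 3.46 in Sox9-het and 3.84 and 3.08 in wild type cells; it fell 4.66-fold (log2 -2.22, SE 0.33, adjusted p = 0.00749). In the Mst experiment Ube2o was not called, with a difference of 0.33.

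The other 3 genes of that chromosome rose, and in each the Sox9-het libraries lay below both Sox9-null and wild type cells. Vamp2, a vesicle fusion protein (chr11:69088490-69092384), had 3.56 and 4.52 log2 CPM in Sox9-null, -0.81 and -0.93 in Sox9-het and 3.88 and 2.87 in wild type cells. The difference was 4.92 (SE 0.53, adjusted p = 0.000366), and in the Mst experiment 3.51 (adjusted p = 0.0155), with 6.27 and 4.92 in Sox9-null, 2.21 and 1.96 in Sox9-het and 2.53 and 4.14 in its GFP control. The non-coding transcript 2610507I01Rik (chr11:59199836-59202385) had 2.46 and 3.35 in Sox9-null cells, -1.74 in both Sox9-het libraries and 3.07 and 2.31 in wild type cells, a difference of 4.65 (SE 0.45, adjusted p = 0.000132) that was 3.06 in the Mst experiment (adjusted p = 0.0138). Rnf187, a RING finger ubiquitin ligase (chr11:58932288-58938916), had 5.97 and 6.74 in Sox9-null, 4.41 and 4.03 in Sox9-het and 6.44 and 5.92 in wild type cells; it rose 4.39-fold (log2 2.14, SE 0.31, adjusted p = 0.00709), with a difference of 1.63 in the Mst experiment that was not called (adjusted p = 0.138). These 3 genes lie 43.69, 53.58 and 53.84 Mb before Sox9 and were the only called ones that differed from wild type, by their own calls, in Sox9-het and not in Sox9-null cells. Among genes not called, Cyb561, which encodes a cytochrome b561 and lies 6.83 Mb before Sox9, had 2.31 and 2.6 in Sox9-null against 3.85 and 4.45 in Sox9-het cells (-1.70, adjusted p = 0.0665) and a difference of -1.94 in the Mst experiment (adjusted p = 0.0559). The share of the chromosome's genes with an unadjusted p under 0.05, 6.57%, was near the 6.62% of all genes. Mice with a floxed Sox9 carry the stretch of chromosome around it on 2 copies in Sox9 fl/fl and 1 in Sox9 fl/+, so for genes placed there the loss of Sox9 and the origin of the chromosome cannot be told apart.

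**Figure D3:**
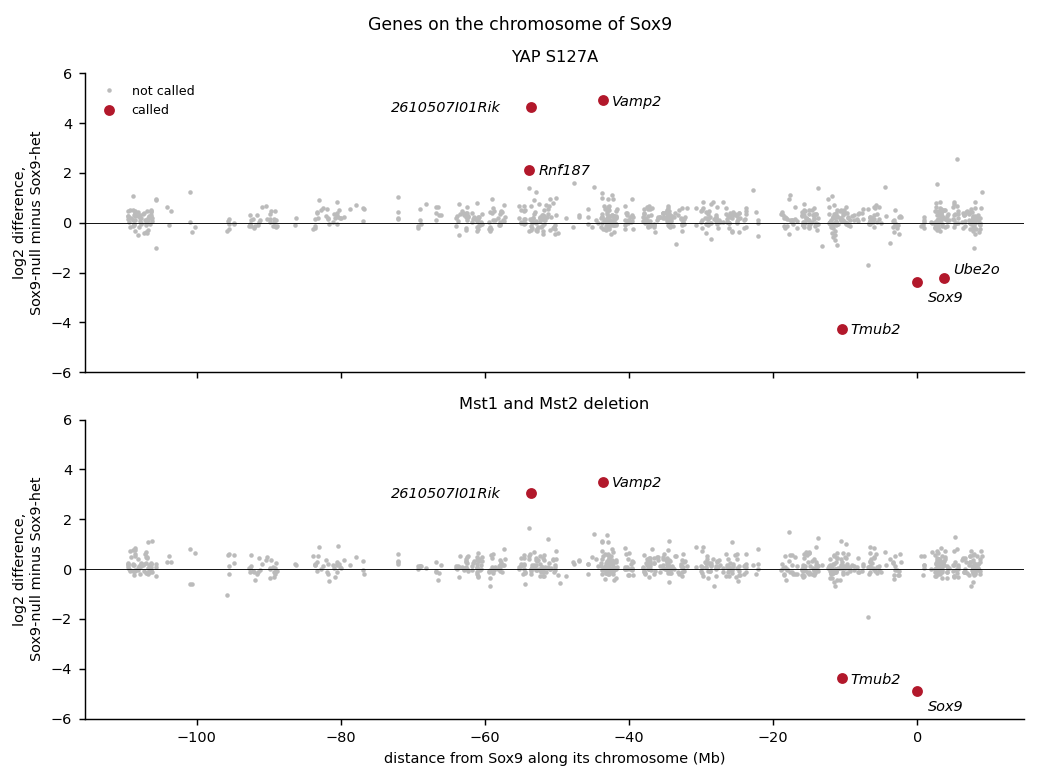
Log2 difference, Sox9-null minus Sox9-het (vertical axis), of the 867 kept genes on the chromosome of Sox9 against their distance from Sox9 (horizontal axis, Mb), under YAP S127A in the upper panel and after Mst1 and Mst2 deletion in the lower panel; called genes are named. Tmub2, 2610507I01Rik and Vamp2 stand apart from the other genes in both panels, and Ube2o and Rnf187 are called under YAP S127A only.

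Mitosis genes had differences of 1 sign, and S phase genes of both signs. All 33 kept genes of mitosis had a difference above 0, against 70.1% of all genes, with a median of 0.89; 14 were higher and 0 lower at an unadjusted p under 0.05, against 5.81% and 0.805% of all genes, and none was called. Top2a, the topoisomerase of dividing cells, had 6.38 and 6.0 log2 CPM in Sox9-null, 5.14 and 4.46 in Sox9-het and 2.92 and 2.54 in wild type cells (1.40, SE 0.36, adjusted p = 0.233). Mki67, the proliferation marker Ki-67, had 6.76 and 6.74 in Sox9-null, 5.59 and 5.23 in Sox9-het and 2.54 and 4.19 in wild type cells (1.34, SE 0.47, adjusted p = 0.517). The order from Sox9-null over Sox9-het to wild type held in the summed linear levels of the list, 1245 and 1243 CPM in Sox9-null, 864.6 and 465.8 in Sox9-het and 120.1 and 251.2 in wild type cells. The median was 0.48 against Sox9-het library 1 alone and 1.32 against library 2 alone, and 1.03 in the Mst experiment. S phase genes had 8 of 34 higher and 1 lower, with a median of 0.54; Mcm2, a subunit of the replicative helicase, had 4.72 and 4.58 in Sox9-null and 3.92 and 2.95 in Sox9-het cells (1.22, adjusted p = 0.291). The 1 lower gene was Mcm10, a replication initiation factor, with 2.44 and 2.03 in Sox9-null, 2.87 and 4.20 in Sox9-het and 4.93 and 3.93 in wild type cells.

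Direct YAP and TAZ targets had 5 of 20 kept genes higher and 0 lower at an unadjusted p under 0.05, a median of 0.70 and no call. Of all genes 5.81% were higher and 0.805% lower at that p, and the Hippo and Notch counts below stand against the same shares. Gadd45a, a growth arrest gene, had 5.27 and 5.18 in Sox9-null and 3.94 and 3.59 in Sox9-het cells, but also 5.32 and 3.12 in wild type cells (1.46, adjusted p = 0.459). Ankrd1, a muscle ankyrin repeat protein and standard YAP target, had 1.54 and 1.99 in Sox9-null, 1.24 and 0.18 in Sox9-het and -0.02 in both wild type libraries (1.05, adjusted p = 0.722). The other standard targets, Ctgf and Cyr61, overlapped: Ctgf had 6.01 and 4.73 in Sox9-null against 5.19 and 5.48 in Sox9-het, and Cyr61 had 7.59 and 7.66 against 8.70 and 7.11. The list's median depended on the library compared: it was 0.23 against Sox9-het library 1 and 1.10 against library 2. Hippo pathway components had 5 of 25 higher and 0 lower, with a median of 0.28; Tead4, a DNA-binding partner of YAP, had 3.22 and 4.24 in Sox9-null, 2.55 and 0.85 in Sox9-het and -0.12 and 0.02 in wild type cells (2.03, SE 0.52, adjusted p = 0.229). Among 11 Notch genes 3 were higher and 0 lower: Hes1, a transcriptional repressor induced by Notch, had 6.37 and 6.02 in Sox9-null and 4.89 and 4.45 in Sox9-het cells (1.53, adjusted p = 0.445), and the ligand Jag1 had 4.74 and 5.76 against 3.79 and 4.07 (1.33, adjusted p = 0.303).

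Biliary and progenitor genes had differences of both signs. Of the 20 kept cholangiocyte and progenitor markers 5 were higher and 2 lower at an unadjusted p under 0.05, against 5.81% and 0.805% of all genes, the median was 0.14, near that of all genes, and Sox9 was the 1 call. The 2 lower genes were Sox9 and Epcam. Prom1, the surface protein CD133, had 4.44 and 4.55 in Sox9-null, 3.48 and 2.23 in Sox9-het and 1.85 and 2.28 in wild type cells (1.64, SE 0.45, adjusted p = 0.288). Bicc1, an RNA-binding protein whose loss gives kidney cysts, had 7.40 and 7.93 in Sox9-null, 6.86 and 5.58 in Sox9-het and 3.50 and 2.97 in wild type cells (1.45, adjusted p = 0.241). Osteopontin (Spp1), listed with these markers, had 10.28 and 10.15 in Sox9-null, 10.71 and 11.22 in Sox9-het and 8.16 and 6.78 in wild type cells. On the cystic and cilia gene list 5 of 26 were higher and 0 lower, led by the zinc finger factor Glis2 with 5.21 and 5.99 in Sox9-null, 4.51 and 2.51 in Sox9-het and 0.71 and 0.86 in wild type cells (2.09, adjusted p = 0.205). Of the 7 kept genes known as SOX9 targets in cartilage, 0 were higher or lower and the median was 0.04.

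Genes with sex-biased expression in mouse liver had differences of opposite sign, with a wide spread between libraries. Of 19 kept female-biased genes 13 were higher and 0 lower at an unadjusted p under 0.05, against 5.81% and 0.805% of all genes, all 19 had a difference above 0 and the median was 1.83, the largest of the lists. Of 18 kept male-biased genes 0 were higher and 4 lower, 0 had a difference above 0 and the median was -0.86. None was called. Beside Cyp4a14, the members of the female-biased list without overlap between groups were led by the organic anion transporter Slc22a27, with 5.14 and 1.64 in Sox9-null, 0.75 and -0.33 in Sox9-het and -0.20 and 1.01 in wild type cells (3.18, SE 0.87, adjusted p = 0.288), and by the hydroxyacid oxidase Hao2, with 3.07 and 3.82 in Sox9-null and 2.05 and -1.06 in Sox9-het cells (2.95, adjusted p = 0.262). The largest difference without overlap on the male-biased list was that of Cyp7b1, an oxysterol hydroxylase, with 3.35 and 5.32 in Sox9-null, 5.40 and 6.84 in Sox9-het and 7.19 and 6.70 in wild type cells (-1.79, SE 0.51, adjusted p = 0.299). Library 1 of the Sox9-null group was the far one: its own median was 2.57 for the female-biased and -1.98 for the male-biased list, against 1.22 and 0.04 for library 2. The labels do not give the sex of the mice. Transcripts that tell the sexes apart, looked at after the values were seen, were these: the Y-linked Ddx3y had 5.14 and 4.62 in Sox9-null against 4.46 and 5.61 in Sox9-het cells, which overlap. Xist, made from the inactive X chromosome, had 1.14 in both Sox9-null libraries against 1.46 and 1.39 in Sox9-het cells, and 1.14 in both wild type libraries. These values do not overlap between Sox9-null and Sox9-het but lie close to the filter level of 1, and whether the identical ones mark a lower limit is not given. The Xist difference of -0.29 (SE 0.38) was not called (adjusted p = 0.944 in limma).

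**Figure D4:**
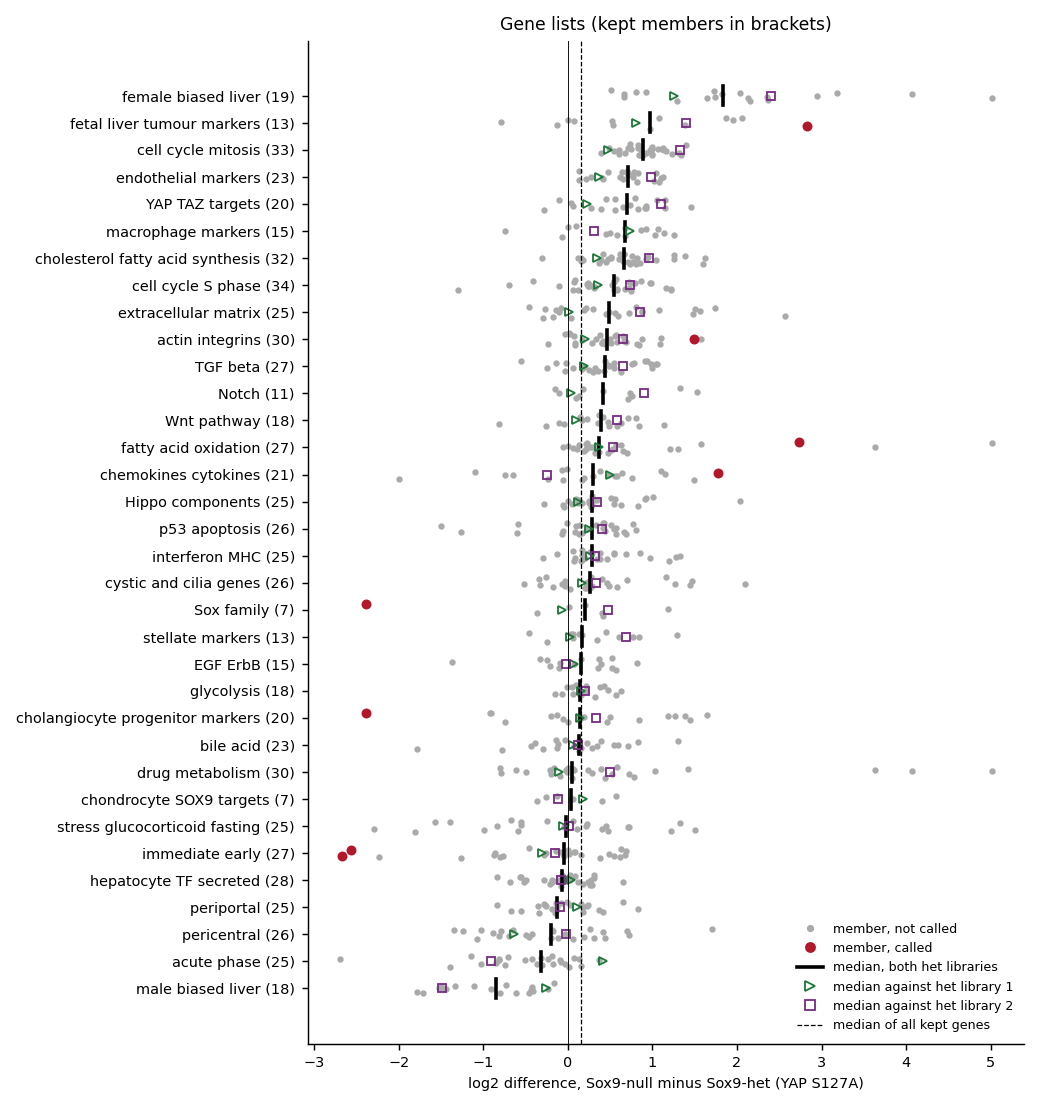
Log2 difference, Sox9-null minus Sox9-het, of the kept members (small points) of 34 gene lists, with called members in red, the list median as a black bar and the medians against Sox9-het library 1 (triangles) and library 2 (squares) alone; the dashed line is the median of all genes at 0.15. Female-biased liver genes lie highest with a median of 1.83 and male-biased genes lowest at -0.86, and for most lists the 2 Sox9-het libraries give different medians.

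Genes of zonal and secretory functions of hepatocytes had medians near or below 0. Pericentral genes had 2 of 26 higher and 5 lower at an unadjusted p under 0.05, against 5.81% and 0.805% of all genes, with a median of -0.20. Glul, the glutamine synthetase of the innermost pericentral hepatocytes, had 6.0 and 5.05 in Sox9-null, 6.57 and 6.95 in Sox9-het and 7.60 and 8.47 in wild type cells (-1.24, SE 0.32, adjusted p = 0.257), and Notum, a secreted Wnt inhibitor, had 3.78 and 3.66 in Sox9-null and 5.61 and 3.87 in Sox9-het cells (-1.02, adjusted p = 0.690). Csad, a taurine synthesis enzyme on the same list, was on the other side with 7.59 and 8.26 in Sox9-null, 6.91 and 5.53 in Sox9-het and 9.30 and 8.08 in wild type cells (1.71, adjusted p = 0.277). Periportal genes had a median of -0.13, hepatocyte transcription factors and secreted proteins -0.07, and bile acid genes 0.13. Cyp7a1, the first and limiting enzyme of classic bile acid synthesis, had 7.01 and 6.63 in Sox9-null, 6.13 and 4.92 in Sox9-het and 6.73 and 7.43 in wild type cells (1.30, SE 0.35, adjusted p = 0.277); both Sox9-het libraries and Sox9-null library 2 lay below both wild type libraries. Acute phase genes had a median of -0.32 that turned to 0.42 against Sox9-het library 1 alone and was -0.91 against library 2 alone. Serum amyloid A2 (Saa2), named after its values were seen, had 6.30 and 5.54 in Sox9-null and 5.62 and 11.62 in Sox9-het cells, with library 2 far above the rest.

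Genes of stress, glucocorticoid and fasting responses had 3 of 25 higher and 4 lower at an unadjusted p under 0.05, against 5.81% and 0.805% of all genes. Without overlap between libraries 3 were higher and 8 lower, against 23.1% and 5.12% of all genes. The list's median was -0.03, and it held no call. Its lower members with the largest differences, Ddit4 (-2.29), Mt1 (-1.80) and Lpin1 (-1.58), had adjusted p of 0.205 to 0.396 in limma. At an unadjusted p under 0.05 TGF-beta signalling had 5 of 27 higher and 1 lower, with a median of 0.43. Interferon and antigen presentation had 5 of 25 higher and 0 lower, with a median of 0.28. Wnt signalling had 3 of 18 higher and 0 lower, with a median of 0.39. Drug metabolism had 5 of 30 higher and 0 lower with a median of 0.05, p53 targets and apoptosis 1 of 26 higher and 2 lower with a median of 0.28, and EGF and ErbB signalling 0 of 15 higher and 1 lower with a median of 0.15.

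Most endothelial, macrophage and stellate cell markers passed the filter on low values, and few T, NK, B, neutrophil or erythroid markers did. All 23 kept endothelial markers had a difference above 0, with a median of 0.70; 3 were higher and 0 lower at an unadjusted p under 0.05, against 5.81% and 0.805% of all genes. Their summed level was 456.1 and 233.7 CPM in Sox9-null, 250.9 and 166.0 in Sox9-het and 49.36 and 119.4 in wild type cells, with overlap between Sox9-null and Sox9-het. Cdh5, the cadherin that defines endothelium, had 4.04 and 2.81 in Sox9-null and 2.47 and 2.18 in Sox9-het cells (1.10, SE 0.37, adjusted p = 0.473). Of 15 kept macrophage markers 1 was higher and 0 lower, 13 were above 0, and the sums were 329.5 and 226.6 CPM in Sox9-null and 178.3 and 254.3 in Sox9-het cells, which overlap. Of 13 kept stellate cell markers 1 was higher and 0 lower, near the share of all genes as for macrophages, and their sums of 103.4 and 66.36 against 85.21 and 59.43 CPM overlapped too. T and NK cell markers kept 1 gene, B cell markers 0, neutrophil markers 2 and erythroid markers 1. The part of such cells in the rises of Csf1, Tagln2, Pcolce and Abcb1a was not tested.

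Among genes with large differences that were not called, several positive ones had 1 low Sox9-het library. Emp1, an epithelial membrane protein, had 3.87 and 6.07 log2 CPM in Sox9-null, 3.63 and 1.10 in Sox9-het and 1.40 and 0.97 in wild type cells (2.6, adjusted p = 0.262). Timp2, an inhibitor of matrix metalloproteinases, had 4.68 and 6.28 in Sox9-null, 4.47 and 1.36 in Sox9-het and 0.10 and 1.03 in wild type cells (2.56, adjusted p = 0.295). In both genes Sox9-het library 1 lay just below the lower Sox9-null library. Closer to a call were Dapp1, an adaptor of phosphoinositide signalling, with 4.20 and 4.31 in Sox9-null, 2.93 and 1.48 in Sox9-het and 1.42 in both wild type libraries (2.05, SE 0.41, adjusted p = 0.0768), and Ehd2, a protein of caveolae, with 3.55 and 4.56 in Sox9-null, 2.35 and 1.98 in Sox9-het and 1.25 and 0.80 in wild type cells (1.90, SE 0.39, adjusted p = 0.0864). The rule for large differences also gave Mug2 (2.63), Plekhg6 (2.58), Dab2 (1.96), Fgd3 (1.92) and Cryab (1.90), with adjusted p of 0.121 to 0.611. Among the largest negative differences, the mTORC1 inhibitor gene Ddit4 had 3.02 and 2.57 in Sox9-null, 4.18 and 6.0 in Sox9-het and 4.59 and 6.22 in wild type cells (-2.29, SE 0.56, adjusted p = 0.205). The glycolytic regulator Pfkfb3 had 4.74 and 3.69 in Sox9-null, 5.50 and 6.56 in Sox9-het and 4.94 and 5.77 in wild type cells (-1.81, SE 0.39, adjusted p = 0.118). Errfi1, a feedback inhibitor of the EGF receptor, had 9.59 and 10.09 in Sox9-null, 11.04 and 11.39 in Sox9-het and 10.63 and 11.43 in wild type cells (-1.38, adjusted p = 0.301). The chemokine Cxcl1 (-2.0), metallothionein Mt1 (-1.80), Elovl3 (-1.72), Ces2c (-1.70), the lipin Lpin1 (-1.58), Gdf15 (-1.5), Plet1 (-1.42) and Il1r1 (-1.42) completed the set, with adjusted p of 0.205 to 0.694. In Cxcl1, Mt1, Ces2c, Lpin1, Plet1 and Il1r1 Sox9-het library 2 lay far above library 1. Cxcl1 had 3.47 and 6.52 in Sox9-het against 2.88 and 3.11 in Sox9-null cells, and Mt1 7.74 and 10.06 against 7.66 and 6.52. The Sox9-het libraries were closer in Elovl3 (4.01 and 4.18) and Gdf15 (6.10 and 6.67).

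Set against wild type, 13 of the 18 called genes differed by a call in Sox9-null cells only, 3 in Sox9-het cells only, H19 in both and Sox9 in neither. Over all genes, 760 (7.12%) were called between Sox9-null and wild type and 168 (1.57%) between Sox9-het and wild type; these comparisons share the wild type libraries, and a call in one and not in the other is no test of a difference. In H19, Abcb1a, Csf1 and Tagln2, 4 of the 12 called rises, both Sox9-het libraries also lay above both wild type libraries. Every called rise has Sox9-null above Sox9-het without overlap, so only the step to wild type is added here. How many of all genes show the same order was not counted.

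The same loss in the Mst experiment, which shares no library with this one, called 5 genes (0.0468%), 2 higher (0.0187%) and 3 lower (0.0281%): Tmub2, Sox9, 2610507I01Rik, Vamp2 and Sec22a, a vesicle trafficking gene that was not called under YAP S127A. Of the 18 genes called under YAP S127A 12 had the same direction there, 66.7% against 59.7% of all genes. For 9 of them the Mst libraries did not overlap either, as held for 22.8% of all genes upward and 7.72% downward. Both sets include Sox9 and, from its chromosome, Tmub2, Vamp2, 2610507I01Rik and Rnf187. The rest of the 12 were Abcb1a, Csf1, Egr1, Fos, H19, Mgst3 and Tagln2, with a difference of 0.115 for Csf1. The differences of Egr1 and Fos in the Mst experiment were -0.22 and -0.05: Egr1 had 8.86 and 8.48 log2 CPM in Sox9-null and 9.08 and 8.70 in Sox9-het cells there, and Fos 7.29 and 6.15 against 6.36 and 7.17. Cyp4a31, G0s2 and Pcolce had differences of -1.26, -0.88 and -0.55 there, and Crat, Cela1 and Ube2o were the other genes of opposite sign. Cela1 was low in all 4 of those libraries, 2.63 and 2.76 in Sox9-null and 2.24 and 2.68 in Sox9-het, against 4.72 and 4.16 in their GFP control. List medians in the Mst experiment were 1.03 for mitosis, 0.69 for fetal and tumour markers, 0.41 for S phase and -0.49 for male-biased genes. They were 0.235 for female-biased and for matrix genes, 0.212 for YAP and TAZ targets and 0.005 for endothelial markers, against 0.09 for all genes. A direct test of the difference between the experiments in the response to Sox9 loss called 0 of 10681 genes (0%) in limma, with 322 (3.01%) at an unadjusted p under 0.05 and a smallest adjusted p of 0.127. That smallest value was shared by Egr1, Cyp4a31, Ube2o, G0s2 and Sec22a, with differences between the experiments of -2.46, 3.99, -2.55, 3.17 and 2.85. Without Sox9-het library 1 of the YAP experiment the test called 18 genes, and with the spread as before the rescaling 64.

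**Figure D5:**
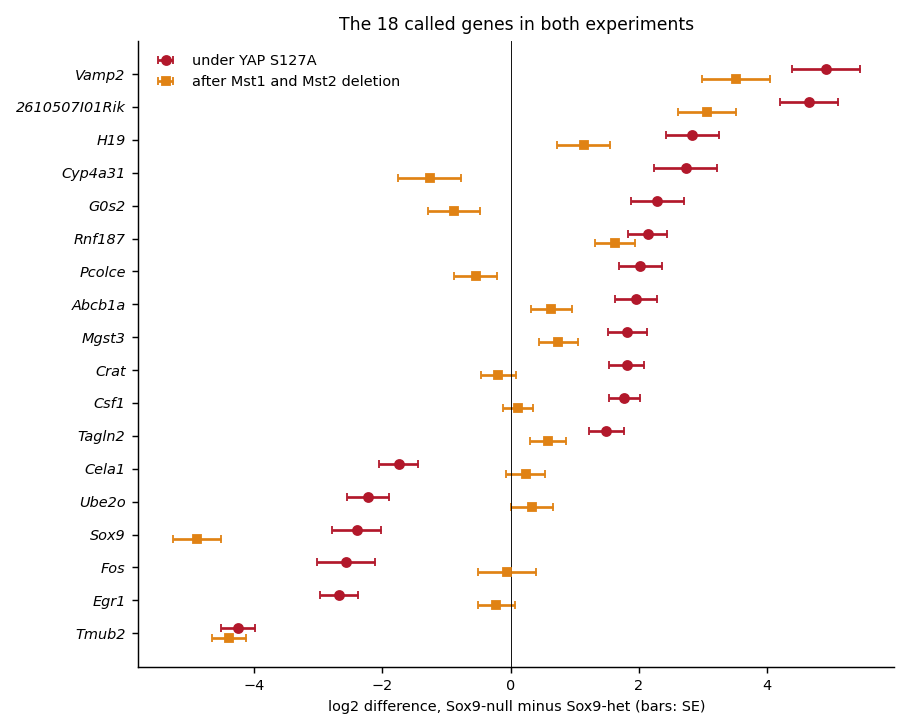
Log2 difference, Sox9-null minus Sox9-het (horizontal axis), of the 18 genes called under YAP S127A (down the page), in that experiment (circles) and after Mst1 and Mst2 deletion (squares); bars are standard errors from limma. Tmub2, Sox9, 2610507I01Rik and Vamp2 lie on the same side in both, whereas Egr1 and Fos lie near 0 and Cyp4a31 and G0s2 on the other side after Mst1 and Mst2 deletion.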

How the data were processed

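RNA of sorted hepatocytes was measured on the Ion AmpliSeq mouse transcriptome panel and an Ion S5, per the labels' protocols. The values analysed are log2 CPM per gene as deposited, with 1 column per library and 0 columns unused; aligner, counter, build and pseudocount: not given in these sources. Within each gene the deposited deviations of libraries are whole multiples of a step for 10661 of the 10681 kept genes (tolerance 2e-06). Its size gives a factor, median 1.58, by which each gene's values appear to have been spread, and the alternative before the rescaling divides it out. The control means of the 2 experiments lie within 0.05 of each other for 98.9% of the genes, as values aligned between experiments would; the labels record no such step. No counts were at hand, so depth, counting intervals and a count test could not be had. 23 gene symbols are stored as dates.

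Genes with a log2 level of at least 1 in at least 2 of 12 libraries were fitted with limma 3.58.1 in R 4.3.3 (means of 6 groups, trended prior variance, 6 residual degrees of freedom, two-sided, Benjamini-Hochberg over all 10681 genes), a fit checked on simulated data. Coordinates are from GENCODE M21 (GRCm38) and promoters from the RefSeq GRCm38.p6 table. The text names Sox9, Sox4, Yap1, all called genes, and up to 15 of the largest differences each way without overlap between libraries and a mean log2 level, in whichever group was higher, of 4 or more. The rule also covers the called genes and the 3 largest differences without overlap in each list. Of these 3, the text names only some or none for many lists. Alb, Klf6, Afp, Ctgf, Cyr61, Spp1, Saa2, Ddx3y, Xist and Sec22a are named outside that rule, after their values were seen. The members and lists were chosen with earlier results of these data known. Replicate numbers were not used to pair the libraries in the main fit. Deviations of same-numbered Sox9-null and Sox9-het libraries had r = -0.0981 across genes, which cannot show whether they were paired.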

Additional observations from a re-analysis of the deposited data

How the results depend on the processing

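The count of 18 genes was 9 with only the libraries of the YAP experiment, 4 with only the 4 libraries compared, 6 without a trend in the prior variance, 5 without the filter on low values and 486 before the rescaling. It ranged over 4 to 128 when 1 library was left out: 128 without Sox9-het library 1, 4 without Sox9-het library 2, and 7 without either Sox9-null library. The count of 5 in the Mst experiment was 2 with only its own libraries, 2 without the filter, 202 before the rescaling and 3 to 20 with 1 library left out, 20 without Mst Sox9-het library 1 and 3 without library 2. The count of 0 for the difference between experiments was 2 with a robust prior, 64 before the rescaling and 0 to 18 with 1 library left out, the 18 without Sox9-het library 1. The Sox9 difference of -2.40 kept its direction but was not called with only the libraries compared (adjusted p = 0.130), without the trend (0.0606) or without the filter (0.232), and ranged over -2.83 to -1.96 with 1 library left out. Yap1 (0.28) turned to -0.0016 without Sox9-null library 2 and was 0.56 without library 1. The cause was not tested, except that fewer libraries give fewer degrees of freedom. With the replicate number as a block the counts were 39 (24 higher and 15 lower, all 18 among them) in the YAP experiment and 5 for the difference. Whether the numbers pair these libraries is not known. Exchanging the numbers of the Mst Sox9-het libraries, an alternative chosen after seeing the data because deviations ran opposite (r = -0.644), gave a block count of 3 in the Mst experiment. A difference between experiments could not be fitted from 1 experiment's libraries or from 4 libraries. Equalised medians and quantile normalization gave 17 calls each, 10 higher and 7 lower. With 2 libraries a group and no counts, differences near the median SE of 0.295 cannot be resolved. Differences well above that SE were often not called either. The called difference of smallest size was that of Tagln2, at 1.5, while Mki67 with 1.34 had an adjusted p of 0.517 in limma.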
